A study of Mus musculus with 4 samples.

Results

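Nitric oxide and arginine metabolism was followed through 8 genes, chosen by symbol from the 32285 genes of the deposited tables: the nitric oxide synthases Nos2 and Nos3, the arginases Arg1 and Arg2, the arginine transporters Slc7a2 and Slc7a1, and the citrulline recycling enzymes Ass1 and Asl. All 8 were found. They were chosen with their levels in these cells and in injured against control discs already known, so those levels are given as a description and support no call.

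Single cell RNA sequencing was done on discs of the tail spine (intervertebral discs, pads of fibrocartilage) from wildtype C57BL/6 female mice aged 12 weeks. Injured discs were levels CC5/6 to CC9/10 of the tail, punctured on both sides with a 30G needle and taken 7 days later, and control discs were the unpunctured levels CC12/13 to CC16/17 of the same animals. There were 2 control and 2 injured libraries, 1 of each in round 1 and in round 2. Discs were pooled, with 6 mice and 30 discs given per group, and the suspended cells were frozen, thawed and sorted for viability. Every injured disc was therefore a more proximal disc than its control, and injury and tail level cannot be told apart.

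Nitric oxide synthases turn arginine into nitric oxide and citrulline, and arginases compete for the same arginine and make ornithine and urea. Nos2 is the inducible synthase, switched on in macrophages and in cartilage cells by cytokines such as interleukin-1, while Nos3 is the synthase of blood vessel lining. Arginine enters cells through cationic amino acid transporters, and Ass1 and Asl rebuild it from citrulline.

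Total unique molecular identifiers (UMIs, each a counted RNA molecule) ranged from 1114210 in control round 1 to 16972879 in injured round 2. These totals are not alike, since control round 1 listed only 444 barcodes and the other libraries also listed near-empty ones. Cells held 1064193 and 2161114 UMIs in the control and 6727076 and 10558620 in the injured libraries. A barcode counted as a cell at 250 or more genes, which gave 378 (round 1) and 856 (round 2) control cells and 778 and 1834 injured cells. Control cells were shallower (median 1061.5 and 836 UMIs) than injured cells (7033.5 and 4635), so shares of cells with a UMI were also computed at equal depth. Of the control round 1 cells, 159 had a barcode whose total in injured round 1 was at least 0.3 times its control total (55 with similar totals and 104 with far more in the injured library). These are called shared barcodes here, and values of control round 1 include them unless stated. Its inner cells are also given without them, and 0 of its 39 outer cells had one. Cells were clustered without the 8 genes. The inner annulus or cartilage-like class, called inner cells here, held 198 and 254 control cells and 490 and 1066 injured cells (rounds 1 and 2), and all 16 of its markers (Col2a1 and Acan among them) had UMIs in each library. The class was named from these markers, so this is no test of the name. Each of its clusters had 5 to 12 of them in at least 25% of cells and at least 1.2 times the level of other cells. The outer annulus or fibroblast-like class, called outer cells, held 39 and 52 control and 28 and 364 injured cells.

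Nos2 UMIs were found almost entirely in inner cells, and their level there was higher in the injured library of each round. The gene (ENSMUSG00000020826) lies on chromosome 11, 78920787 to 78960254 on the plus strand of GRCm38. The inner class held 88% and 93.3% of the 50 and 60 Nos2 UMIs of the control libraries and 97.0% and 96.5% of the 1636 and 597 of the injured ones. Of the UMIs of all genes, it held 664597 of 1064193 and 1306742 of 2161114 in control cells. In injured cells it held 5764829 of 6727076 and 6863928 of 10558620. As CPM (a gene's UMIs scaled to a fixed total of UMIs of the same cells), inner cells had 66.2 in control round 1 (exact Poisson 95% interval 48.1 to 88.9), 275 in injured round 1 (262 to 289), 42.9 in control round 2 (32.4 to 55.7), and injured round 2 had 83.9 (77.2 to 91.1). Without shared barcodes, control round 1 had 40.3 CPM. Both injured libraries lay above both control libraries, and injured round 1 stood far above the other 3. Group means were 54.5 ± 16.5 CPM in control and 179.6 ± 135 in injured inner cells (SD, n = 2 each), a gap smaller than the SD of the injured libraries. Without shared barcodes the control mean was 41.6 ± 1.79 (SD, n = 2), and the gap was then slightly larger than that SD. Intervals cover counting error only.

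The shared barcodes carried part of the control round 1 signal. Its 104 cells whose barcodes were much deeper in injured round 1 had 258 CPM of Nos2, its 55 cells with similar totals had 0 of 40853 UMIs, which allows up to 73.4 CPM, and the other 219 cells, whose barcodes held few or no UMIs in injured round 1, had 31.7 CPM.

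**Figure D1:**
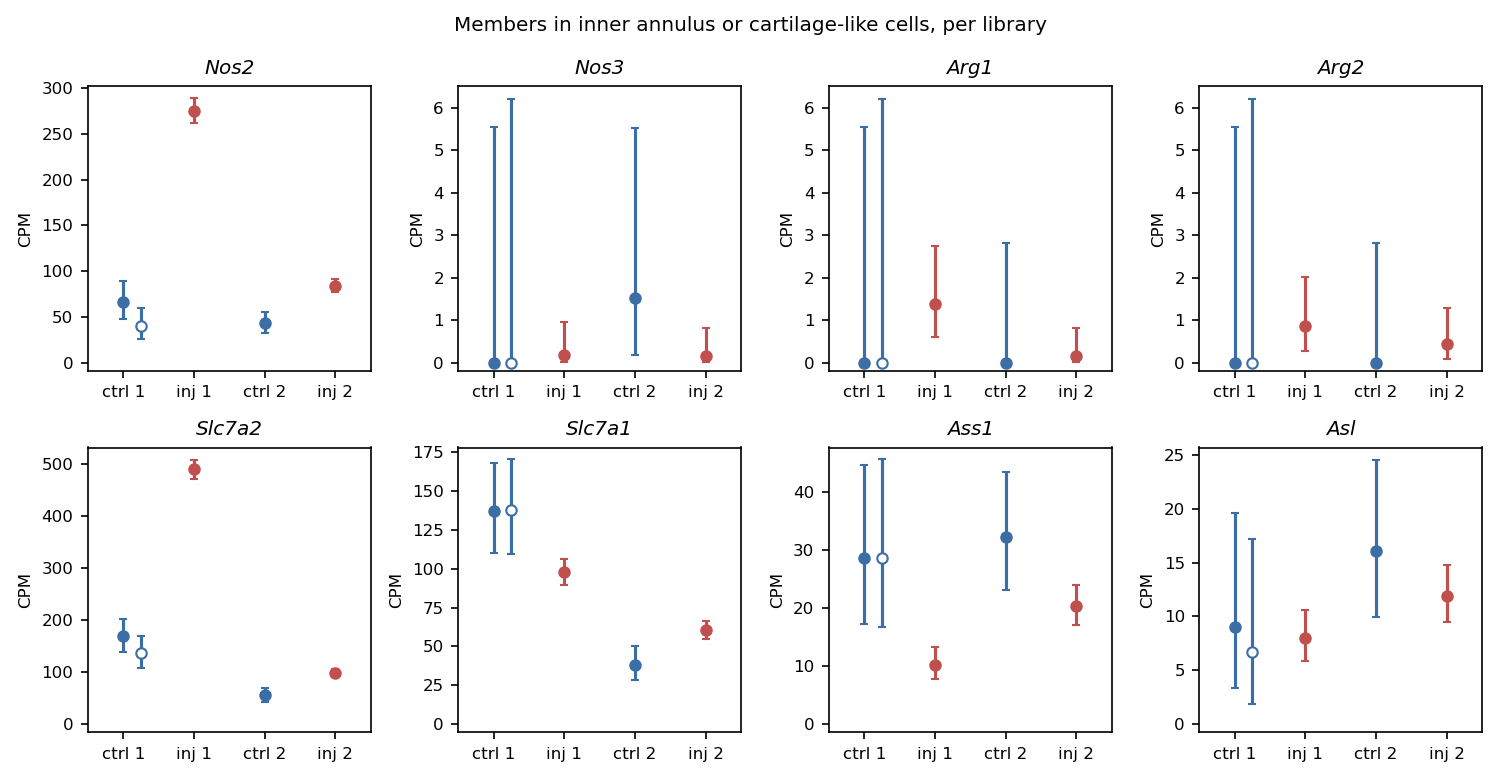
CPM of the 8 genes in inner annulus or cartilage-like cells, with 1 panel per gene and a linear axis of its own. Filled points are libraries (blue control, red injured), open points are control round 1 without shared barcodes, and bars are exact Poisson 95% intervals of the counts. Nos2 reaches 275 in injured round 1 against 42.9 to 83.9 in the other 3 libraries, and Nos3, Arg1 and Arg2 stay under 2 in all 4.

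With shared barcodes kept, equal depth left the order of the libraries in place. With each inner cell thinned to 1000 UMIs and shallower cells left out (84 and 27 control cells, 7 and 25 injured cells), a Nos2 UMI was found in 4.39% of control round 1 cells (exact 95% interval 1.44 to 9.94), 15.9% of injured round 1 cells (12.8 to 19.5), 2.64% of control round 2 cells (0.976 to 5.66) and 5.86% of injured round 2 cells (4.51 to 7.46). Without shared barcodes the first share was 1.98%, under control round 2, while unthinned it was 9.52%, above control round 2, so the order of the controls turned. The unthinned shares were 14.1%, 43.3%, 5.12% and 21.8%. The round 2 intervals overlapped, and the round 1 intervals did not.

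Macrophages, the cell type best known for Nos2, held almost none of it here. The macrophage or monocyte-like cluster had 1 Nos2 UMI in 134 cells, 130 of them from the injured libraries. The nucleus pulposus-like cluster, cells of the disc core, had 0 of 179100 UMIs in 106 cells, which allows up to 16.8 CPM. Of these cells, 29 and 71 were from the control libraries and only 5 and 1 from the injured ones (rounds 1 and 2). The 5 cells of injured round 1 held 7270 UMIs, which allows up to 413 CPM. This 0 therefore says little about injured cells of the disc core. The mural-like cluster, cells around vessels, had 0 in 39 cells, with limits of 33.2 CPM in injured round 1 and 52.6 in injured round 2. Outer cells had 22.7 CPM in control round 1, 12.1 in injured round 1, 0 of 396389 UMIs in control round 2, which allows up to 7.57, and 2.96 in injured round 2. Of the 12 macrophage markers, 2 to 10 had UMIs in the inner cells of a library, Adgre1 was at 0 in all 4, and their summed level was 22.6 and 6.12 CPM in control inner cells and 12.0 and 15.2 in injured inner cells. The summed level of the 6 neutrophil markers was 12.0 and 1.53 CPM in control and 15.96 and 18.8 in injured inner cells, and its part in the result was not tested. In barcodes of 1 to 100 UMIs, a measure of free RNA, Nos2 was at 21.4 CPM in injured round 1, 4.38 in control round 2, and injured round 2 had 11.4, and its level over all cells was 11.4, 6.34 and 4.96 times that. The control round 1 matrix listed no such barcodes.

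**Figure D2:**
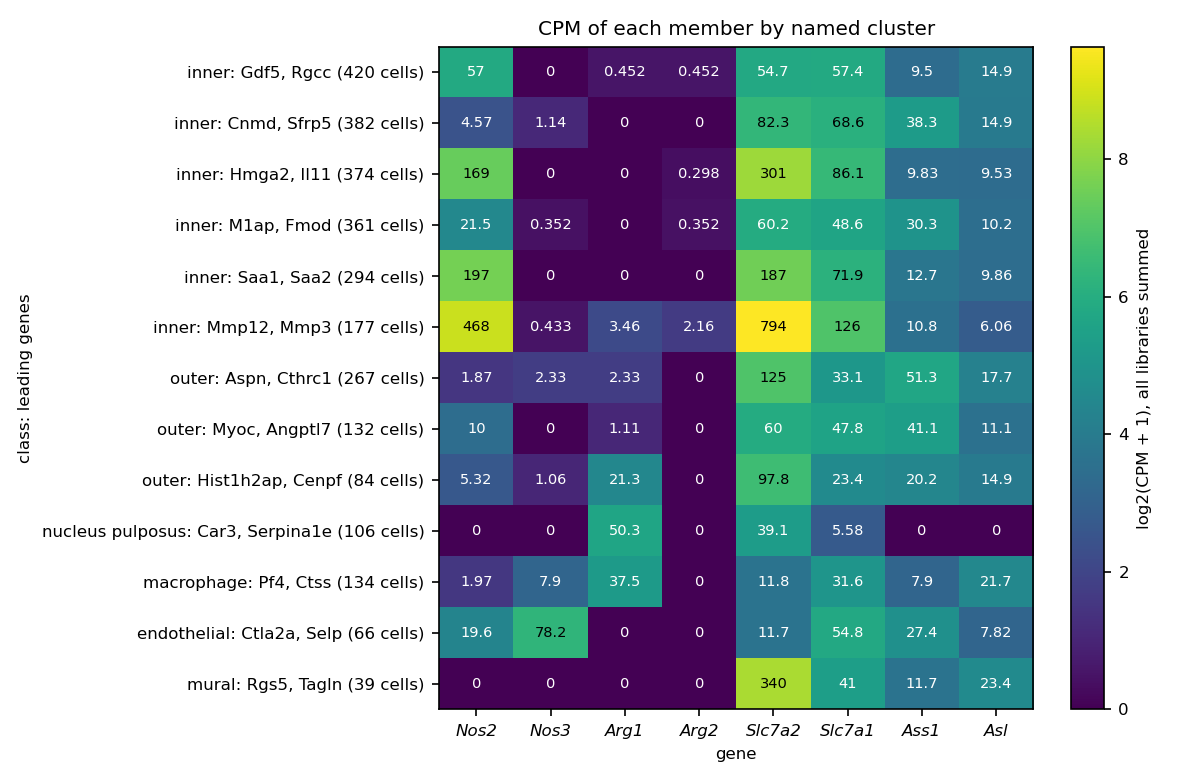
CPM of the 8 genes (columns) in each named cluster (rows, with class, leading genes and number of cells), summed over the 4 libraries. The colour shows log2(CPM + 1) and the printed value is the CPM. Nos2 is highest in the Mmp12 and Mmp3 cluster at 468 and is at 4.57 in the Cnmd and Sfrp5 cluster of the same class.

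Within the inner class, Nos2 marked some clusters and was nearly absent from others. The cluster led by Mmp12 and Mmp3, which encode matrix-degrading proteases, had 529.7 CPM of Nos2 in injured round 1 (498 to 563), where 107 of its 134 cells had a UMI, 214 in injured round 2 (23 cells) and 91.2 in control round 1 (20 cells, none with a shared barcode). Control round 2 had no cell in it. The cluster led by the acute-phase genes Saa1 and Saa2 had 184 CPM in its 271 injured round 2 cells and 366 CPM in its 11 control round 2 cells, and those 11 cells held 41 of the 56 Nos2 UMIs of control round 2 inner cells. In the cluster led by Hmga2 and Il11, injured round 1 had 169 CPM, and 81 of the 87 control round 1 cells had shared barcodes. The cluster led by Cnmd and Sfrp5, with chondromodulin (Cnmd) as a cartilage marker, had 8 Nos2 UMIs in 382 cells. An unnamed cluster of 345 cells led by mitochondrial genes had 283 CPM in injured round 1, 33.7 in control round 2, and injured round 2 had 79.5, while control round 1 had 0 of 36016 UMIs, which allows up to 83.3. Clusters stand apart by the genes they were built on, so these values describe them and test nothing.

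The libraries drew their inner cells from different clusters. The Cnmd and Sfrp5 cluster gave 37.4% of inner cells in control round 1 (70.5% without shared barcodes) and 83.1% in control round 2, against 4.49% in injured round 1 and 7.04% in injured round 2. The Hmga2 and Il11 cluster gave 43.9% in control round 1, but 5.71% without shared barcodes. In injured round 1, 54.9% came from the Hmga2 and Il11 cluster and 27.3% from the Mmp12 and Mmp3 cluster, and in injured round 2 the Gdf5 and Rgcc, M1ap and Fmod, and Saa1 and Saa2 clusters gave 34.7%, 29.3% and 25.4%. Within the Cnmd and Sfrp5 cluster, which all 4 libraries share, Nos2 was at 14.2 CPM in control round 1, 12.4 in injured round 1, 0 of 981744 UMIs in control round 2 and 3.93 in injured round 2, on 0 to 5 UMIs each. Outer cells also came from different clusters. The cluster led by Myoc and Angptl7 gave 84.6% and 86.5% of control outer cells in rounds 1 and 2, against 46.4% and 11.3% of injured ones. In injured round 2, 67.0% came from the cluster led by Aspn and Cthrc1 and 21.7% from the dividing cells. In the class sums of inner and of outer cells, a change in level per cell and a change in which cells were present cannot be told apart.

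Nos3 had few UMIs, and over all libraries together most of them were in vessel lining cells. It lies on chromosome 5, 24364810 to 24384474, plus strand, and its end overlaps the antisense gene Atg9b. All cells together held 0 and 3 Nos3 UMIs in the control libraries and 13 and 18 in the injured ones, and 20 of these 34 were in the 66 cells of the endothelial-like cluster. There the level was 69.6 CPM in injured round 1 (12 UMIs) and 156 in injured round 2 (7 UMIs), while control round 2 had 1 UMI in 5 cells and control round 1 had 0 in 8 cells, which allows up to 104 CPM. Those counts do not separate control from injured endothelial-like cells. Over all cells, Nos3 was lower than in free RNA in injured round 1 (1.93 against 5.84 CPM) and control round 2 (1.39 against 3.50) and higher in injured round 2 (1.70 against 0.814). The endothelial-like cells had 5 Nos2 UMIs, 4 of them in the injured libraries.

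Few arginase UMIs were found, in few cells. Arg1 (chromosome 10, 24915221 to 24927484, minus strand), the liver-type arginase also used as a marker of alternatively activated macrophages, had 8 and 1 UMIs in the control libraries and 13 and 41 in the injured ones, and 28 cells in all had any. The macrophage or monocyte-like cluster had 19 UMIs in 7 cells, which gave 27.9 CPM in injured round 1 and 45.8 in injured round 2. The dividing outer cells, led by Hist1h2ap and Cenpf, had 20 UMIs in 10 cells of injured round 2. A single inner cell of injured round 1 held 8 of that library's 13 UMIs, and 2 nucleus pulposus-like cells held all 8 of control round 1, which gave 128 CPM over the 29 such cells. Free RNA held a larger share of Arg1 than the cells did, at 6.49 against 1.93 CPM in injured round 1, 2.41 against 0.463 in control round 2 and 8.14 against 3.88 in injured round 2. Only the level summed over all cells of a library lay under its free RNA, while the macrophage or monocyte-like cells of both injured libraries and the dividing outer cells of injured round 2 (23.9 CPM) lay above it.

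Arg2 (chromosome 12, 79130777 to 79156301, plus strand), the mitochondrial arginase, had 0 UMIs in both control libraries, 5 in injured round 1 and 3 in injured round 2, all of them in inner cells. Its level in free RNA was 11.7 CPM in injured round 1 and 2.71 in injured round 2, above 0.743 and 0.284 in cells. Vti1b overlaps its end on the other strand.

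Slc7a2, the inducible cationic amino acid transporter, was high in the Nos2-rich Mmp12 and Mmp3 cluster and was also found in mural-like cells and, at lower levels, in outer cells. It lies on chromosome 8, 40862396 to 40922308, plus strand, and the last 500 bases of its transcripts match stretches of 5 other genes on the same strand, so its counts are uncertain where reads could be split. Inner cells had 169 CPM in control round 1 (136 without shared barcodes), 489.5 in injured round 1, 55.1 in control round 2, and injured round 2 had 98.5. Each injured library was above the control of its own round, but control round 1 was above injured round 2, so the groups overlapped. At 1000 UMIs per cell, 7.89% of control round 1 inner cells (4.95% without shared barcodes), 25.5% of injured round 1, 3.08% of control round 2 and 8.17% of injured round 2 had a Slc7a2 UMI.

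**Figure D3:**
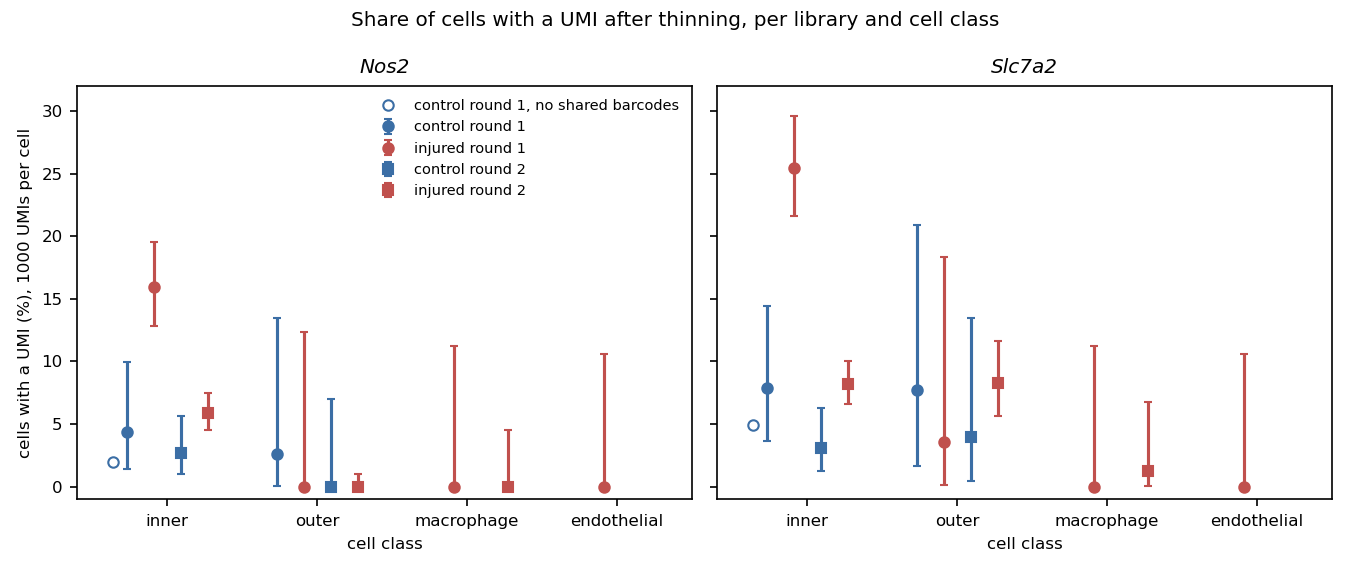
Percent of cells with a UMI of Nos2 (left) or Slc7a2 (right) after thinning every cell to 1000 UMIs, by class (groups of at least 20 cells) and library. Bars are exact 95% binomial intervals, and the open point is control round 1 without shared barcodes. Injured round 1 inner cells are highest at 15.9% for Nos2 and 25.5% for Slc7a2, and macrophage and endothelial cells are at 0 for Nos2.

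Outside the inner class, the unnamed cluster led by mitochondrial genes had the highest Slc7a2 of injured round 1, at 911 CPM (84 cells), against 278 in control round 1, and in round 2 it had 33.7 (control) and 65.0 (injured). Mural-like cells held Slc7a2 at 354 CPM in injured round 1 (16 cells) and 386 in injured round 2 (19 cells), with only 2 such cells in each control library. Outer cells had 109 CPM in control round 1, 39.5 in injured round 1, 63.1 in control round 2, and injured round 2 had 116, so the rounds went opposite ways. Free RNA held Slc7a2 at 46.7 CPM in injured round 1, above the outer cells of that library, and at 9.42 in control round 2 and 22.8 in injured round 2. Within the Myoc and Angptl7 cluster, Slc7a2 was at 126 and 67.1 CPM in control and 10.3 and 19.6 in injured libraries (1 and 5 UMIs), with the injured library lower in each round. Macrophage or monocyte-like cells were low, at 11.2 CPM in injured round 1 and 13.1 in injured round 2. In the Cnmd and Sfrp5 cluster, Slc7a2 was at 93.7 CPM in control round 1, 459 in injured round 1 (74 UMIs in 10 of 22 cells), 27.5 in control round 2, and injured round 2 had 39.3. The Mmp12 and Mmp3 cluster had 886 CPM in injured round 1, 417 in injured round 2 and 233 in control round 1.

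Slc7a2 was counted in inner cells with and without a Nos2 UMI. In injured round 1, 85.8% of the 212 inner cells with a Nos2 UMI had a Slc7a2 UMI, against 40.6% of the 278 without. In injured round 2 these shares were 47.0% of 232 and 23.9% of 834, and in control cells they were 60.7% of 28 and 16.5% of 170 in round 1 and 46.2% of 13 and 12.4% of 241 in round 2. Of those 28 control round 1 cells, 10 remained without shared barcodes, and 9 of them had a Slc7a2 UMI, against 16.8% of the 95 without Nos2. Cells with Nos2 differed in depth from those without, with medians of 11784 against 8216.5 UMIs in injured round 1 and 6837.5 against 5043 in injured round 2. In control cells the medians were 943 against 2240.5 in round 1 (9473 against 4178 without shared barcodes) and 8681 against 4445 in round 2. In CPM, Slc7a2 was at 773 against 160 in injured round 1 and 175 against 70.3 in injured round 2. Slc7a1 was closer, at 104 against 90.7 CPM and 69.9 against 56.8. Ass1 was at 9.04 against 11.6 and 15.2 against 22.1 CPM, while the share of cells with an Ass1 UMI was 10.8% against 8.63% and 11.6% against 10.9%. In control cells Ass1 was at 35.5 against 27.2 CPM in round 1 and at 0 UMIs in the 13 cells against 35.3 in round 2, so Ass1 had no common direction. These are cells of 1 library each and give no test.

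Slc7a1, the constitutive cationic amino acid transporter (chromosome 5, 148327410 to 148399904, minus strand), was higher in round 1 than in round 2 in both groups. Inner cells had 137 CPM in control round 1 (138 without shared barcodes), 97.7 in injured round 1, 38.3 in control round 2, and injured round 2 had 60.3. The injured library was lower in round 1 and higher in round 2. Outer cells had 59.1 and 57.7 CPM in control and injured round 1 and 20.2 and 31.6 in round 2, again with round 1 above round 2 in both groups. In free RNA it was at 46.1 CPM in injured round 1, 10.1 in control round 2, and injured round 2 had 14.1.

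Ass1, which joins citrulline and aspartate, was lower in injured inner cells in both rounds. It lies on chromosome 2, 31470207 to 31520672, plus strand, and its transcript end matches the pseudogene Gm5424, so its counts are uncertain. Inner cells had 28.6 CPM in control round 1 (17.2 to 44.6, and 28.6 also without shared barcodes), 10.2 in injured round 1 (7.79 to 13.2), 32.1 in control round 2 (23.2 to 43.4), and injured round 2 had 20.3 (17.0 to 23.9). Both injured libraries were below both controls, although the round 2 intervals overlapped. Free RNA of injured round 1 held Ass1 at 15.6 CPM, above the 12.6 of all its cells, while in round 2 cells exceeded free RNA (28.7 against 7.66 in control and 26.1 against 5.16 in injured). Within the Cnmd and Sfrp5 cluster it was at 34.1 and 37.7 CPM in the control and 49.6 and 39.3 in the injured libraries, with wide intervals (21.4 to 97.8 in injured round 1). Outer cells had 31.8 and 45.4 CPM in control and 45.6 and 41.5 in injured libraries.

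Asl, which splits argininosuccinate into arginine and fumarate (chromosome 5, 130011258 to 130029247, minus strand), had 9.03 CPM in control round 1 inner cells, 7.98 in injured round 1, 16.1 in control round 2, and injured round 2 had 11.9. The groups overlapped, and without shared barcodes control round 1 was at 6.72. Asl in free RNA of injured round 1 was at 15.6 CPM, above the 9.07 of all its cells. Outer cells had 13.6 and 10.1 CPM in control (3 and 4 UMIs) and 21.3 and 15.8 in injured libraries (7 and 48 UMIs). Ass1 and Asl both had 0 UMIs in the 106 nucleus pulposus-like cells, which were shallow.

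Injured and control libraries were then fitted with edgeR on the summed counts of all cells, of inner cells and of outer cells. Over all cells 6 of the 8 genes passed the filter on low counts, over inner cells 5 and over outer cells 3. None of them was called (edgeR, Benjamini-Hochberg adjusted p under 0.05), where 0.117% of 11990 genes were called over all cells, 0 of 10872 in inner cells and 0.857% of 4901 in outer cells, and 948, 821 and 656 genes had an unadjusted p under 0.05. DESeq2 called 169, 99 and 102 genes in these comparisons and none of the 8. The log2 fold change of Nos2, injured over control, was 2.05 ± 0.68 (SE) over all cells (edgeR adjusted p = 0.489) and 1.84 ± 0.57 in inner cells (edgeR adjusted p = 0.459). For Slc7a2 it was 1.55 ± 0.76 (edgeR adjusted p = 0.701) and 1.50 ± 0.76 (edgeR adjusted p = 0.697). Control and injured discs of a round came from the same animals. With round as a block, Nos2 was called at 1.76 ± 0.31 over all cells (edgeR adjusted p = 0.00436) and 1.64 ± 0.29 in inner cells (edgeR adjusted p = 0.000199), and Slc7a2 at 1.42 ± 0.26 (edgeR adjusted p = 0.00617) and 1.34 ± 0.28 (edgeR adjusted p = 0.00206). That fit called 2.73% of all genes as higher and 3.41% as lower over all cells, and 3.38% and 3.21% in inner cells, and since the genes were chosen on this contrast nothing is read from their calls.

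Leaving out injured round 1 moved Nos2 to 0.73 over all cells and 0.86 in inner cells, and Slc7a2 to 0.20 and 0.04. Leaving out control round 1 gave 2.50 and 2.22 for Nos2 and 2.58 and 2.56 for Slc7a2, all of them called, and without its shared barcodes alone Nos2 was at 2.36 and 2.23. Leaving out injured round 2 also gave calls over all cells, at 2.76 for Nos2 and 2.27 for Slc7a2. In each fit that left out a library, an arm held 1 sample, assumed to vary like the other group. Ass1 was at -0.42 ± 0.46 over all cells and -0.84 ± 0.48 in inner cells (edgeR adjusted p = 0.739), and Slc7a1 and Asl were within 1 SE of 0 in both. Leaving out injured round 1 moved Ass1 to 0.04 over all cells, where its sign turned, and to -0.35 in inner cells, and leaving out injured round 2 moved it to -1.08 and -1.50. Slc7a1 ran from -0.50 to 1.08 over all cells and from -0.69 to 1.22 in inner cells when each library was left out in turn (lowest without control round 2, highest without control round 1), and Asl from -0.39 to 0.46 and from -0.62 to 0.27 (lowest without injured round 2, highest without control round 2). None of these fits called Ass1, Slc7a1 or Asl.

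**Figure D4:**
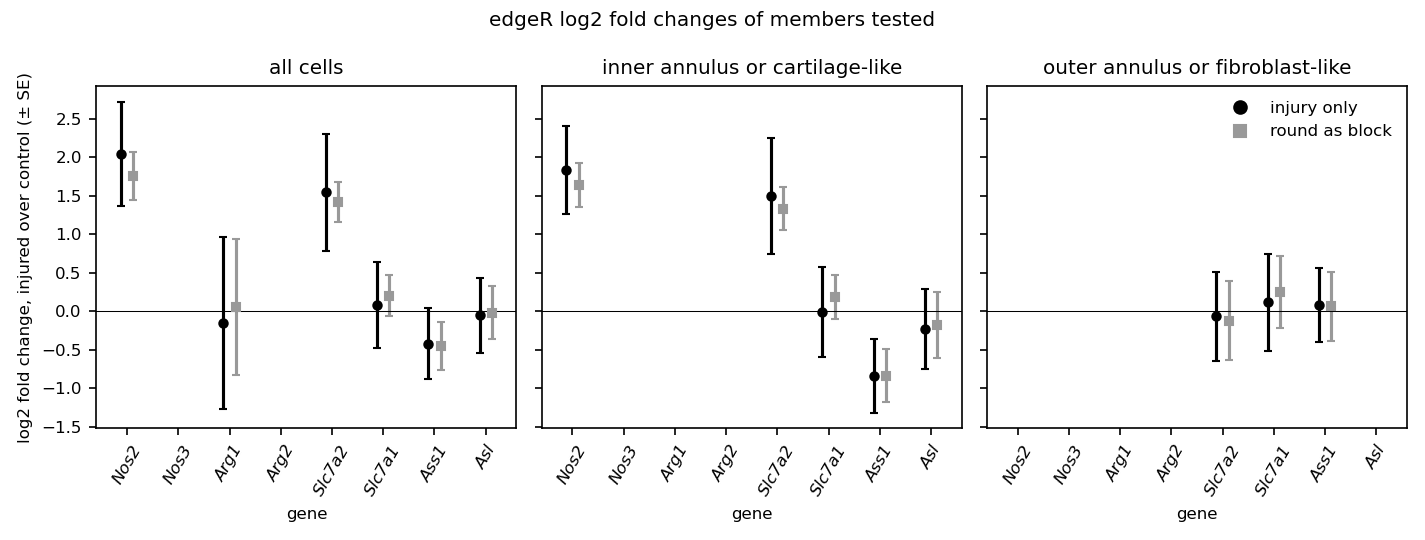
edgeR log2 fold changes of injured over control (vertical axis, ± SE) for each gene that passed the filter on low counts, over all cells, inner cells and outer cells. Black circles are fits of injury alone and grey squares are fits with round as a block. Nos2 and Slc7a2 lie above 1 over all cells and in inner cells, and the outer cell values lie near 0.

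Both injured libraries exceeded both controls in CPM for Nos2 among the tested genes over all cells and in inner cells, and both lay below for Ass1. Without shared barcodes, Ass1 over all cells was at 25.4 CPM in control round 1, under the 26.1 of injured round 2, so there the groups overlapped. Such separation was seen in 16.4% of tested genes upward and 20.6% downward over all cells, and in 13.8% and 24.1% in inner cells.

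The rest of the pathway was read from 64 further genes in 9 roles, of which 50 were tested over all cells, 47 in inner cells and 29 in outer cells. None was called without the block, and 5, 6 and 4 had an unadjusted edgeR p under 0.05. The median log2 fold change was -0.02 over all cells, 0.01 in inner cells and -0.12 in outer cells, beside -0.01, -0.04 and 0.00 over all genes tested. With round as a block, 1 rose and 3 fell over all cells, 1 rose and 4 fell in inner cells and 4 fell in outer cells, where 3.82% of all genes tested fell. The levels below are sums over cells of different clusters, as above. In control round 1, leaving out shared barcodes moved the inner level by over 1.5 times only for Ddah1 among the genes named below.

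Of the methylarginine genes, Ddah1, which clears natural inhibitors of nitric oxide synthases, was at 13.5 and 9.18 CPM in control inner cells and 22.0 and 36.6 in injured inner cells of rounds 1 and 2, and at 5.04 in control round 1 without shared barcodes. With the block it rose by 1.62 on the log2 scale in inner cells (edgeR adjusted p = 0.00884) and by 1.36 over all cells (edgeR adjusted p = 0.0406). Within the Cnmd and Sfrp5 cluster it had 1 to 3 UMIs per library. The arginine methyltransferase Prmt1 was at 79.8 and 58.2 CPM in control and 49.6 and 56.7 in injured inner cells.

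Downstream of nitric oxide, Prkg1, the cyclic GMP dependent kinase, was at 49.7 and 61.2 CPM in control and 22.0 and 21.0 in injured inner cells. With the block it fell by 1.23 in inner cells (edgeR adjusted p = 0.00628), by 1.33 over all cells (edgeR adjusted p = 0.00773) and by 2.45 in outer cells (edgeR adjusted p = 0.00517) on the log2 scale. Within the Cnmd and Sfrp5 cluster it was at 65.3 and 75.4 CPM in control and 55.8 and 74.6 in injured libraries. In outer cells it was at 68.2 and 90.8 CPM in control and 21.3 and 13.2 in injured libraries, and within the Myoc and Angptl7 cluster at 73.6 and 97.8 against 41.1 and 66.7 (4 and 17 injured UMIs).

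Of 12 receptors and regulators in the induction of Nos2, among them an inhibitor, 9 had log2 fold changes under 0 over all cells, 7 in inner cells and 8 of the 9 tested in outer cells, where 51.0%, 53.1% and 49.8% of all genes tested did. The interleukin-1 receptor gene Il1r1 was at 287 and 105 CPM in control and 72.9 and 45.0 in injured inner cells, and with the block it fell there by 1.47 on the log2 scale (edgeR adjusted p = 0.000389) and by 1.17 over all cells (edgeR adjusted p = 0.0214). Within the Cnmd and Sfrp5 cluster it was at 321 and 122 CPM in control and 211 and 129.6 in injured libraries. Irf1, an interferon response factor, fell by 1.04 over all cells (edgeR adjusted p = 0.0495) and by 1.95 in outer cells (edgeR adjusted p = 0.0154) with the block. Over all cells it was at 22.6 and 111.5 CPM in control and 16.5 and 38.5 in injured libraries, and in inner cells at 12.0 and 122 against 13.7 and 39.8, with round 1 slightly higher in the injured library. In outer cells it was at 27.3 and 121 CPM in control (6 and 48 UMIs) and 9.11 and 29.6 in injured libraries (3 and 90 UMIs), and within the Myoc and Angptl7 cluster at 31.5 and 131 CPM in control (6 and 47 UMIs) and 10.3 and 125.5 in injured libraries (1 and 32 UMIs). Cebpb, a transcription factor of the acute-phase response, fell by 1.27 in outer cells with the block (edgeR adjusted p = 0.0364), from 881.5 and 441.5 CPM in control to 383 and 187.5 in injured libraries. Within the Myoc and Angptl7 cluster it was at 925 and 469.5 against 483 and 624, with the rounds going opposite ways. Nfkbia, the inhibitor of NF-kappaB, had the highest mean CPM of this role and was at 548 and 833 CPM in control and 493 and 809 in injured inner cells.

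Of the synthase partners, Hsp90aa1, a chaperone that binds nitric oxide synthases, was at 1357 and 1416 CPM in control and 659 and 486 in injured inner cells and fell by 1.15 on the log2 scale with the block (edgeR adjusted p = 0.0305). Within the Cnmd and Sfrp5 cluster it was at 1610 and 1708 CPM in control and 1612 and 1217 in injured libraries. Nos1ap, an adaptor of the neuronal synthase, fell by 2.44 in inner cells with the block (edgeR adjusted p = 0.0464) from levels of 3.01 and 5.36 CPM (2 and 7 UMIs) to 0.867 and 0.583 (5 and 4 UMIs), where a count of 3 is the floor, so its round 1 value is under the floor. Gch1, the first enzyme of tetrahydrobiopterin synthesis, the cofactor of the synthases, was at 88.8 and 39.8 CPM in control and 105 and 84.9 in injured inner cells.

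Polyamine, proline, transport and urea cycle genes gave 1 call. Sat1, which acetylates polyamines for breakdown, was at 577 and 245 CPM in control and 255 and 106 in injured outer cells and fell there by 1.24 on the log2 scale with the block (edgeR adjusted p = 0.0382). Within the Myoc and Angptl7 cluster it was at 620 and 257 CPM in control and 442 and 278.5 in injured libraries, lower in round 1 and higher in round 2. The antizyme gene Oaz1 was at 728 and 804 CPM in control and 955 and 1163 in injured inner cells. Oat, which routes ornithine toward proline, was at 187 and 234 against 173 and 211, and the transporter subunit Slc3a2 was at 259 and 160 against 207 and 141. Gamt, of creatine synthesis, was too low to test in inner cells.

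Over the 18 clusters of at least 30 cells, the genes most like each member were ranked by Pearson r of log2(CPM + 10) among 8016 genes, as a description over clusters that share libraries. For Nos2 these were Ereg (r = 0.89), Bpifc, Gm15241, Slc25a37 and Trdc (r = 0.88). For Slc7a2 they were Gorab (r = 0.92), Garem1, B230354K17Rik, 9330188P03Rik and Ttc9c. Slc7a1 was nearest to Ttc14 (r = 0.89), Snrnp48, Rad17, Iars and Cpsf6. Ass1 was nearest to Stx17 (r = 0.89), Coq5, Fam168a, Med24 and Slc25a16, and Asl to Zfyve16 (r = 0.96), Uckl1, Dalrd3, Crtc2 and Appl2. Between members, r was 0.66 for Nos2 with Slc7a2, 0.65 for Nos2 with Slc7a1 and -0.29 for Ass1 with Asl. Nos3, Arg1 and Arg2 had under 200 UMIs and were not ranked.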

How the data were processed

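UMI counts per gene and barcode were made by the authors with Cell Ranger (6.0.0 for control round 1 and version 4 for the other 3 libraries, per the file headers) on mm10, per the labels. The deposited counts are whole and not normalized, and the control round 1 matrix lists only 444 barcodes, each with at least 502 UMIs. Cells were barcodes with at least 250 genes, with no doublet or mitochondrial filter (doublets were removed in an alternative). UMIs were scaled to 10000 per cell, and 2000 variable genes without the 8 members gave 30 principal components and Leiden clusters at resolution 1 (scanpy 1.11.5, leidenalg 0.10.2). Of 18 marker lists, each cluster was named by the list with most markers detected, and was left unnamed with under 3 of them, with a share of its list under 0.25, with low UMIs and no marker among its top 10 genes, with more markers of another class among those 10, or where over 50% of its control round 1 barcodes had about equal totals in injured round 1. Clusters were rebuilt here and can differ from the authors' names.

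CPM is a gene's summed UMIs over all summed UMIs of the same cells, on the usual CPM scale. Library sums of counts went into edgeR 4.0.16's quasi-likelihood test, two-sided (R 4.3.3; filterByExpr, TMM, injury alone; a call is a Benjamini-Hochberg adjusted p under 0.05) with DESeq2 1.42.0 as an alternative. On simulated counts for each of the 3 comparisons, with 200 genes changed 8-fold, edgeR recovered 100% of them, and 6.1% of its calls over all cells, 2.44% in inner cells and 6.54% in outer cells were false. The simulation gave every gene the same spread, had no difference between rounds and changed only genes with enough expected UMIs in the smallest library. It therefore does not give the power of the test on these libraries. The p-values measure only the spread between these pooled libraries. The labels pair control and injured discs of the same animals, and deviations from group means of same-round libraries correlated at 0.51 over all cells, 0.53 in inner cells and 0.34 in outer cells (with 2 rounds the 2 values are equal by construction). Annotation is GENCODE on GRCm38, with 8 of 8 symbols matched. Of the 64 pathway genes, those called with or without the block and the highest by mean CPM in each role are named, except for a gene not reported here. The members, lists and naming rules were chosen with earlier results of these data known.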

Additional observations from a re-analysis of the deposited data

Results flagged for a closer look

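With all cells kept, the Asl differences of inner and outer cells had opposite signs. Injured minus control, it was -1.05 CPM in round 1 and -4.12 in round 2 in inner annulus or cartilage-like cells, and 7.63 and 5.70 CPM in outer annulus or fibroblast-like cells. Both rounds went one way in each class, which is what drew attention to it. The round 1 inner direction turns without shared barcodes (6.72 CPM in control and 7.98 in injured) and at 500 genes per cell (6.46 and 7.98), so the signs are then not opposite in round 1. The difference between the classes was not tested, and the outer values rest on 3 to 48 UMIs per library.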

How the results depend on the processing

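Depth limits these results. There were 2 libraries per group, with 1064193 and 2161114 UMIs in the cells of the control libraries. With Arg1, Arg2 and Nos3 near 0, 2 members over all cells, 3 in inner cells and 5 in outer cells were not tested. Genes called over all cells (14 without a block) numbered 736 with round as a replicate block (4 pathway genes), 169 with DESeq2 (45 higher, 124 lower), 378 without the low-count filter (169 higher, 209 lower), 0 at 500 genes per cell, 30 with the UMI minimum, 3 without shared barcodes and 36 without the highest doublet scores. Those of inner cells (0) numbered 716 (5 pathway genes), 99 (46 higher, 53 lower), 143, 14, 8, 15 and 0 in that order, and 14 at under 10% mitochondrial UMIs. Those of outer cells (42, 30 higher and 12 lower) numbered 400 with the block (213 higher, 187 lower; 4 pathway genes), 102 with DESeq2 (58 higher, 44 lower), 309 without the filter (1 pathway gene), 70 at under 10% mitochondrial UMIs and 71 without the highest doublet scores. Leaving out each library gave 126 to 273 genes over all cells, 26 to 176 in inner cells and 78 to 502 in outer cells, with 0 to 1, 0 to 1 and 0 to 4 pathway genes. The causes were not tested. Nos2 and Slc7a2 kept a positive log2 fold change in all 12 alternatives over all cells and all 13 in inner cells, with adjusted p from 6.38e-05 to 0.734 and from 0.000199 to 0.856 for Nos2. The block changed the calls of Nos2 and Slc7a2 and of no other member. Without the low-count filter edgeR also called Nos2 over all cells and in inner cells, and Slc7a2 over all cells. DESeq2 gave Nos2 an adjusted p of 0.0519 over all cells. The median log2 fold change of all genes in inner cells was -0.16 on the log2(mean CPM + 1) scale without TMM, against -0.04 in the edgeR fit. At Leiden resolution 0.5 the outer class had 6, 15, 7 and 323 cells and was not fitted.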
